A study of Mus musculus with 10 samples.

Results

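Rptor and 7 other core genes of the mTOR kinase pathway (Rictor, Mtor, Mlst8, Akt1s1, Rheb, Tsc1 and Tsc2) were followed in mouse embryonic stem cells (ESCs) and in neural progenitor cells (NPCs) derived from them. The 7 were chosen by their known function in the pathway. Rptor was picked from these data with its lower level after Cbx3 siRNA already known, in NPCs and in ESCs, so its values in every comparison that involves Cbx3 siRNA are a description with no test. The 8 genes are 8 of the 24520 genes in the expression table, each read from the row with its highest mean value, and all 8 passed the filter on low values (1 RPKM or more in 2 or more libraries), as did 11956 genes in all. RPKM is a read count scaled by transcript length and by the number of mapped reads in the library.

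The study knocked down Cbx3, which encodes the heterochromatin protein HP1 gamma, and Med26, a subunit of Mediator, the complex through which transcription factors act on RNA polymerase II. V6.5, a mouse ESC line, was kept undifferentiated on irradiated mouse embryonic fibroblast feeders in serum and LIF, or turned into NPCs through embryoid bodies (4 days) and then a monolayer in ITSF medium. Cells received control or targeting siRNA on day 5 and were harvested on day 8; the labels give these days for the monolayer NPCs and no separate schedule for ESCs. The 5 groups were ESCs with control siRNA, ESCs with Cbx3 siRNA, and NPCs with control, Cbx3 or Med26 siRNA, each with 2 libraries called biological replicates, all from the 1 line and with no genetic change named. ESCs had no Med26 siRNA group.

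The mTOR kinase, encoded by Mtor, works in 2 complexes. mTOR complex 1 is defined by raptor (Rptor), which brings in substrates, and contains the inhibitory subunit PRAS40 (Akt1s1). Complex 2 is defined by rictor (Rictor), and mLST8 (Mlst8) binds the kinase in both. The small GTPase Rheb switches on complex 1 at the lysosome, while hamartin (Tsc1) and tuberin (Tsc2) form the complex that switches Rheb off. In pluripotent and neural progenitor cells the pathway couples growth factors and nutrients to protein synthesis and growth.

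Among the transcripts that contain the 7 bases GAGAGTT on the sense strand are those of Rptor, Rictor and Mtor, which are not the full list of carriers among the 8 genes. They are shown here because an earlier pass over these same changes picked that sequence among genes that were lower after Cbx3 siRNA, Rptor among them. It therefore supports nothing about these genes. Each line gives 30 bases of the transcript, 5′ to 3′, with the 7 bases in capitals, read from the GENCODE transcripts on GRCm38, which is not the build the study's processing notes name.
Rptor: tttaccaaaatGAGAGTTgaaaggactgac
Rictor: tttcgtcccttGAGAGTTaatgataactat
Mtor: cactctcatgaGAGAGTTttgggtcatgaa
The Rptor window lies at chr11:119899308-119899337 on the plus strand, in the 3′ UTR in the last of 34 exons, with the match at bases 6506 to 6512 of a transcript of 6594 bases. The Rictor window lies at chr15:6798128-6798157 on the plus strand, also in the 3′ UTR, in the last of 38 exons. The match in Mtor (exon 20 of 58) is in coding sequence. The Mtor window runs over an exon junction, so its genomic span, chr4:148480939-148483571 on the plus strand, includes an intron. Of all 11773 tested genes with a matched transcript 18.3% carry the sequence, as do 35.5% of the 1252 whose transcript is within 1.25 times the length of that of Rptor.

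The siRNAs lowered their targets in NPCs. Cbx3 went from 9.37 and 9.65 RPKM in the 2 control libraries to 0.425 and 0.248 RPKM after Cbx3 siRNA (log2 change -2.98, SE 0.09, limma adjusted p = 0.000172), and Med26 from 7.56 and 6.78 to 3.04 and 3.07 RPKM after Med26 siRNA (-1.01, SE 0.10, limma adjusted p = 0.00398). The ESC controls held 14.0 and 56.4 RPKM of Cbx3 and the ESC libraries with Cbx3 siRNA 1.01 and 1.96 RPKM, which did not pass (-3.59, SE 0.53, limma adjusted p = 0.291). Log2 changes here and below are differences of log2(RPKM + 1). Estimated from the steps between low values, a gene of 1 kilobase at 1 RPKM stood for 23.3 to 63.8 reads across libraries, with 558 to 3518 reads behind each Rptor value and 167 to 673 behind each Mlst8 value. Markers of both labelled cell types were checked. The 2 ESC control libraries stood apart from each other (Esrrb 53.4 and 13.7, Krt8 4.59 and 40.7 RPKM). In NPC controls Pou5f1, a pluripotency gene, stayed at 484 and 497 RPKM and Nanog at 24.3 and 23.5 RPKM, while Esrrb was near 1. The neural progenitor markers did not go one way between the control groups. Sox1, Pax6 and Nes were higher in NPCs (Nes 34.9 and 33.4 against 6.35 and 15.4 RPKM in ESCs). Sox2 was lower in NPCs (29.6 and 29.9 against 131 and 72.1 RPKM). Of the neuronal markers, Dcx was at most 0.024 RPKM in any library, but Tubb3 was at 33.3 to 54.5 RPKM. The labels call the libraries biological replicates without naming separate cultures, so p-values reflect the spread among these libraries alone, and in bulk RNA fewer cells of a type and less RNA per cell cannot be told apart.

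Rptor was at 9.92 and 7.73 RPKM in NPC controls, 8.91 and 6.93 after Med26 siRNA and 4.06 and 3.58 after Cbx3 siRNA. In ESCs it was at 7.93 and 8.21 RPKM in controls and 4.33 and 3.63 after Cbx3 siRNA. The 4 libraries with Cbx3 siRNA were the 4 lowest of the 10, and a gap from 4.33 to 6.93 RPKM separated them from the other 6. The mean after Cbx3 siRNA was 43.3% of control in NPCs (3.82 ± 0.34 against 8.82 ± 1.55 RPKM, mean ± SD, n = 2) and 49.3% in ESCs (3.98 ± 0.49 against 8.07 ± 0.20 RPKM, mean ± SD, n = 2). As a log2 change these are -1.02 and -0.87. In NPCs 6 of the 11956 tested genes, Rptor included, had a change that low, and in ESCs 11 did. Both changes belong to the rule that chose the gene. Rptor has 2 accession rows in the table, and the second also stood at 43.3% of control in NPCs and 49.5% in ESCs.

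**Figure D1:**
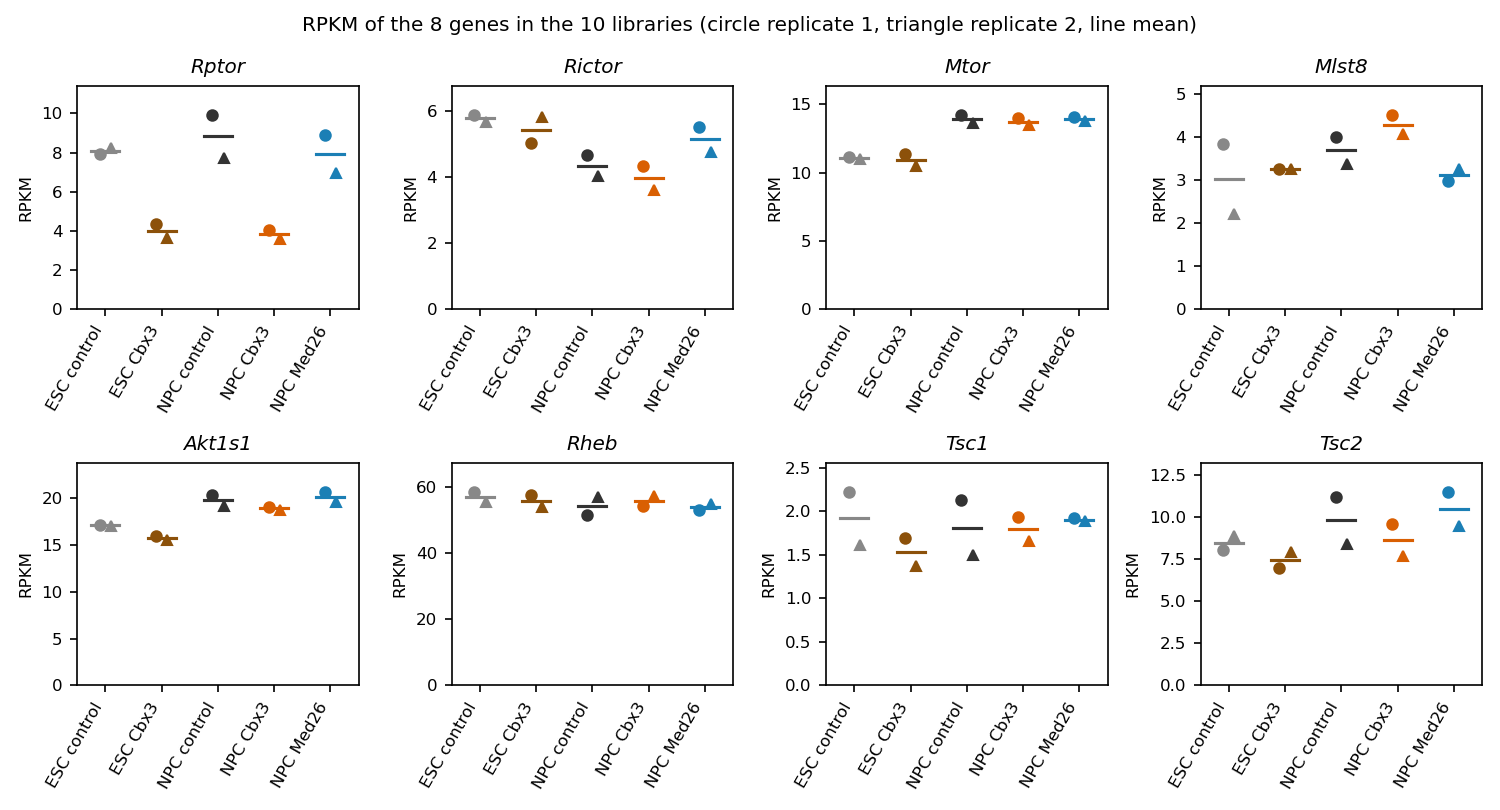
Level of each of the 8 genes in RPKM in the 10 libraries, by group, 1 point per library with a line at the mean of the group. Rptor drops from between 6.93 and 9.92 RPKM in the 6 libraries without Cbx3 siRNA to between 3.58 and 4.33 RPKM in the 4 with it, while the highest library of each other gene is at most 2.03 times its lowest.

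None of the 7 other genes passed after Cbx3 siRNA in NPCs (0 of 7), against 13.1% of all tested genes (limma, adjusted p under 0.05, with 7.8% higher and 5.33% lower). At an unadjusted p under 0.05 there were also 0 of the 7, against 3619 of all 11956 tested genes. Mtor, the kinase, was at 14.2 and 13.7 RPKM in NPC controls and 14.0 and 13.5 RPKM after Cbx3 siRNA. The groups overlapped, and the interval of the log2 change ran from -0.16 to 0.12 (-0.02, SE 0.06, limma adjusted p = 0.866). Rictor, the complex 2 counterpart of Rptor, was at 4.65 and 4.01 RPKM in controls and 4.32 and 3.59 RPKM after the siRNA. Its groups overlapped too (log2 change -0.11, interval -0.38 to 0.17, limma adjusted p = 0.594).

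The subunit Mlst8 had both NPC libraries above both controls after Cbx3 siRNA, 4.51 and 4.06 against 4.00 and 3.38 RPKM. The difference did not pass (log2 change 0.17, SE 0.10, limma adjusted p = 0.295). How many of all tested genes had groups apart like this was not counted. Akt1s1 was at 20.4 and 19.2 RPKM in controls and 19.0 and 18.8 RPKM after the siRNA, just below both, and it did not pass either (-0.06, SE 0.06, limma adjusted p = 0.563). Of the switch genes, Rheb was at 51.6 and 57.1 against 54.2 and 57.4 RPKM, with overlapping groups. Tsc1 overlapped too (1.81 ± 0.45 in controls and 1.80 ± 0.20 RPKM after the siRNA, mean ± SD, n = 2). Tsc2 was at 11.2 and 8.42 RPKM in controls and 9.59 and 7.70 RPKM after the siRNA. With replicates this far apart its interval was the widest of the 7, from -0.56 to 0.23 (log2 change -0.16, limma adjusted p = 0.559).

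In ESCs after Cbx3 siRNA none of the 7 passed (0 at an unadjusted p under 0.05). No gene in the table passed there (0%), with 645 at an unadjusted p under 0.05 (limma), so this count says little about the 7. Their log2 changes ran from -0.20 (Tsc1) to 0.11 (Mlst8). Mtor was at 11.2 and 11.0 RPKM in ESC controls and 11.3 and 10.5 RPKM after the siRNA. Rictor was at 5.86 and 5.66 against 5.03 and 5.80 RPKM, again overlapping. Akt1s1 was lower in both libraries, 15.9 and 15.5 against 17.2 and 17.0 RPKM, as was Tsc2, 7.01 and 7.97 against 8.05 and 8.88 RPKM, without passing (limma adjusted p = 0.9998 each). The difference between the NPC and the ESC response was -0.15 for Rptor on the log2 scale, given as a description. It passed for none of the 7 others, nor for any tested gene (0%, with 233 at an unadjusted p under 0.05).

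**Figure D2:**
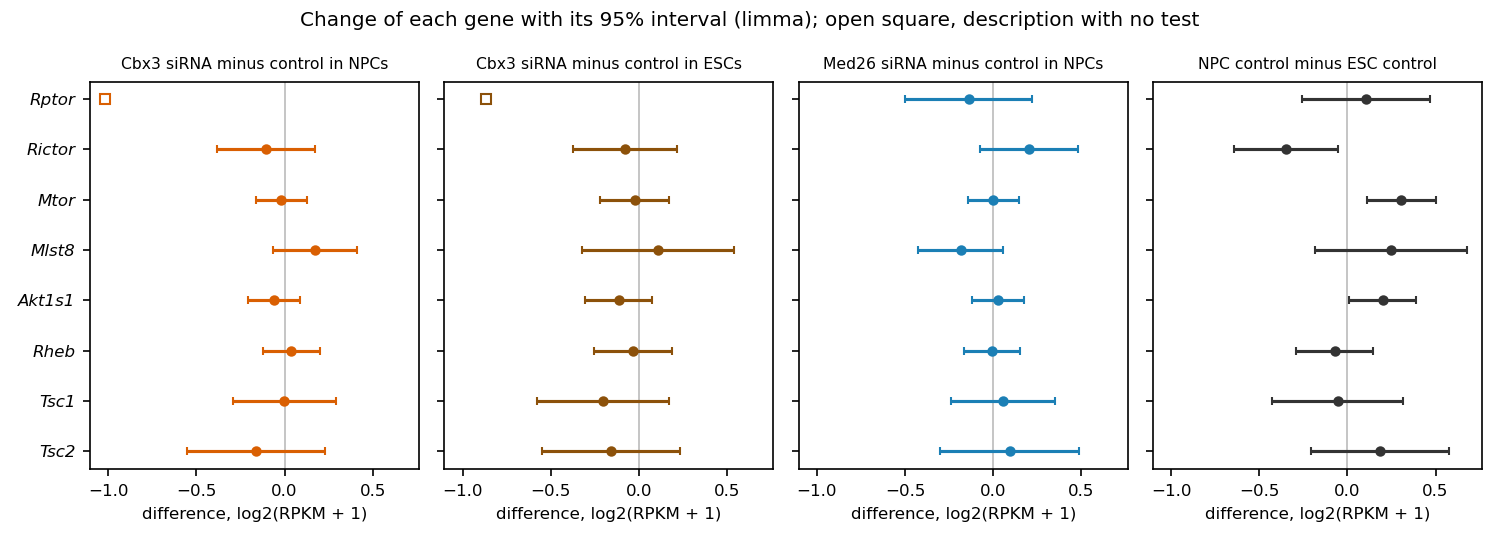
Difference in log2(RPKM + 1) for each gene in 4 comparisons, with its 95% interval from limma where it was tested. Open squares mark Rptor where it was chosen on that difference (-1.02 in NPCs and -0.87 in ESCs); the intervals of the 7 other genes after Cbx3 siRNA all span 0, in NPCs and in ESCs.

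Rptor and Rictor, which define the 2 complexes, changed places after Cbx3 siRNA in ESCs and came to overlapping levels in NPCs. RPKM is scaled by length, so the 2 genes can be set side by side. The level of Rptor was 1.35 and 1.45 times that of Rictor in the ESC controls and 0.861 and 0.626 times after Cbx3 siRNA. In NPCs it was 2.14 and 1.93 times that of Rictor in controls, 1.62 and 1.46 times after Med26 siRNA, and 0.941 and 0.999 times after Cbx3 siRNA. Rptor stood above Rictor in all 6 libraries without Cbx3 siRNA and below it in all 4 with it, by very little in NPC replicate 2 (3.585 against 3.590 RPKM). Against Mtor, Rptor went from 0.698 and 0.566 times in NPC controls to 0.291 and 0.266 times, and from 0.710 and 0.746 times in ESC controls to 0.382 and 0.347 times. These ratios include the values that chose Rptor and were not tested.

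Among the 8 genes Rheb had the highest level in each of the 10 libraries (51.6 to 58.7 RPKM), with the narrowest spread, its highest library being 1.14 times its lowest. Akt1s1 (15.5 to 20.7 RPKM) and Mtor (10.5 to 14.2 RPKM) followed, without overlap between neighbours in any group. In both control groups Tsc2 and Rptor came next and overlapped each other, then Rictor, Mlst8 and Tsc1 (1.37 to 2.23 RPKM). Mlst8 and Tsc1 overlapped in ESC controls. After Cbx3 siRNA Rptor moved down this order. In ESCs it lay below Rictor and above Mlst8, with no overlap on either side. In NPCs it overlapped with Rictor (3.58 to 4.06 against 3.59 to 4.32 RPKM). It also overlapped barely with Mlst8 there (highest Rptor library 4.0645, lowest Mlst8 library 4.0635 RPKM). Tsc1 came next, at 1.94 and 1.66 RPKM, without overlap. The highest library of Rptor was 2.77 times its lowest, against 1.14 to 2.03 times for the 7 others.

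After Med26 siRNA in NPCs none of the 8 genes passed (0 of 8), against 13.4% of all tested genes (limma, with 6.9% higher and 6.46% lower). At an unadjusted p under 0.05 there were also 0 of the 8, against 3755 of all 11956 tested genes. For Rptor this comparison did not enter the choice, although it shares the NPC controls with the one that did. Rptor was at 89.8% of the control mean with overlapping libraries, and the interval of its log2 change ran from -0.50 to 0.22 (-0.14, SE 0.15, limma adjusted p = 0.577). Rictor was at 5.50 and 4.75 RPKM after Med26 siRNA, both above the controls at 4.65 and 4.01 RPKM, without passing (0.20, SE 0.12, limma adjusted p = 0.286). Mlst8 was at 2.98 and 3.26 RPKM, both below its controls at 4.00 and 3.38 RPKM, again without passing (-0.19, SE 0.10, limma adjusted p = 0.257). Mtor was at 14.1 and 13.8 RPKM and differed by 0.001 on the log2 scale (interval -0.14 to 0.14).

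Set directly against Med26 siRNA, Cbx3 siRNA left none of the 7 other genes past the threshold, against 18.3% of all tested genes. At an unadjusted p under 0.05 (limma) there were 2 of the 7, and 4112 of all 11956 tested genes. Those 2 were Mlst8 (4.51 and 4.06 against 2.98 and 3.26 RPKM) and Rictor (4.32 and 3.59 against 5.50 and 4.75 RPKM), neither with overlapping libraries. Mlst8 came nearest (log2 difference 0.36, SE 0.10, interval 0.12 to 0.60, limma adjusted p = 0.0528), and Rictor differed by -0.31 (SE 0.12, limma adjusted p = 0.117). Whether Mlst8, Rictor and Tsc2 passed here depended on the settings of the fit, as the closing section gives. Rptor differed by -0.88, a difference as low or lower in 38 tested genes counting Rptor, given as a description because the Cbx3 libraries chose the gene.

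Between the control groups Mtor was higher in NPCs, at 14.2 and 13.7 against 11.2 and 11.0 RPKM in ESCs (log2 difference 0.31, SE 0.08, interval 0.11 to 0.50, limma adjusted p = 0.0470). It was the 1 of the 8 genes that passed (12.5%), against 16% of all tested genes (10.1% higher and 5.94% lower). The call was near the threshold: adjusted p was 0.0543 with quantile normalization, 0.0532 with accession rows summed and 0.0574 without the intensity trend. It was also lost, with adjusted p from 0.0810 to 0.228, without ESC control replicate 1 or 2 and without any 1 of the 6 NPC libraries, and was kept without either ESC Cbx3 library. Rptor did not pass between the control groups, whose libraries overlapped (8.82 ± 1.55 in NPCs and 8.07 ± 0.20 RPKM in ESCs, mean ± SD, n = 2). The interval ran from -0.26 to 0.47 (log2 difference 0.11, SE 0.16, limma adjusted p = 0.662). This comparison did not enter the choice of Rptor, but both control groups are part of the comparisons that did, so its test is not independent of the choice. Rictor was lower in NPCs, 4.65 and 4.01 against 5.86 and 5.66 RPKM, and Akt1s1 higher, 20.4 and 19.2 against 17.2 and 17.0 RPKM, and neither passed (-0.35, limma adjusted p = 0.102, and 0.20, limma adjusted p = 0.135). Summed fibroblast feeder markers (7 genes) were at 49.2 to 73.0 RPKM in ESC controls and 5.78 to 7.53 RPKM in NPC controls, with Lum at 0 in all 4 of these libraries, and their part in these differences was not tested.

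Other genes of the pathway were taken from a list of 74, all in the table and 72 of them tested. After Cbx3 siRNA in NPCs 3 rose and 9 fell (16.7% against 13.1% of all tested genes; 4.17% against 7.8% higher and 12.5% against 5.33% lower), with a median log2 change of 0.03 against 0.01. Genes that fell included Ddit4l (4.55 and 3.84 to 2.27 and 2.26 RPKM, log2 change -0.67), a REDD family inhibitor of complex 1, and the stress-induced sestrins Sesn3 (10.03 and 10.67 to 6.37 and 6.39 RPKM, -0.62) and Sesn2 (42.9 and 36.6 to 27.0 and 25.6 RPKM, -0.57). The Rag GTPases, which bring complex 1 to the lysosome, did not move one way: Rragb (11.1 and 11.8 to 6.96 and 7.41 RPKM, -0.61) and Rragd (18.1 and 17.2 to 12.5 and 11.6 RPKM, -0.51) fell and Rragc (11.2 and 12.3 to 14.9 and 14.1 RPKM, 0.28) rose.

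Of the kinases and their controls, Akt2 (4.11 and 3.48 to 2.38 and 1.97 RPKM, -0.60) fell after Cbx3 siRNA, as did Pdcd4 (-0.43), a translation inhibitor that the pathway marks for degradation. Sgk1, a kinase downstream of complex 2, rose (31.9 and 31.1 to 43.4 and 38.9 RPKM, 0.37), as did Prr5l, which encodes a complex 2 subunit (3.24 and 2.87 to 4.52 and 5.22 RPKM, 0.53). Adjusted p for these ran from 0.0046 (Sesn3) to 0.0454 (Rragc) by limma. The count of 12 fell when any 1 control or Cbx3 siRNA library was left out. The count over all tested genes, 1570 in the main fit, fell there too. In the fit of all 10 libraries 0 list genes passed, and 1 of all 11956 tested genes. The summed epithelial markers (Krt8, Krt18, Krt7 and Epcam) stood at 317 to 344 RPKM in NPC controls and 608 to 649 RPKM after Cbx3 siRNA, neural progenitor markers (Sox1, Pax6, Nes and Sox2) at 75.1 to 77.1 and 55.7 to 58.5 RPKM, and muscle markers (Actc1, Acta2 and Myh6) at 33.3 to 34.6 and 58.3 to 58.7 RPKM. Not every marker followed its sum. Epcam overlapped (122 and 138 RPKM in controls, 128 and 131 after Cbx3 siRNA). Actc1 was lower (14.7 and 13.6 to 12.9 and 13.2 RPKM), while Acta2 was higher (18.7 and 18.5 to 43.6 and 43.1 RPKM). None of these 11 markers was at 0 in an NPC library, and their part in the changes was not tested.

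**Figure D3:**
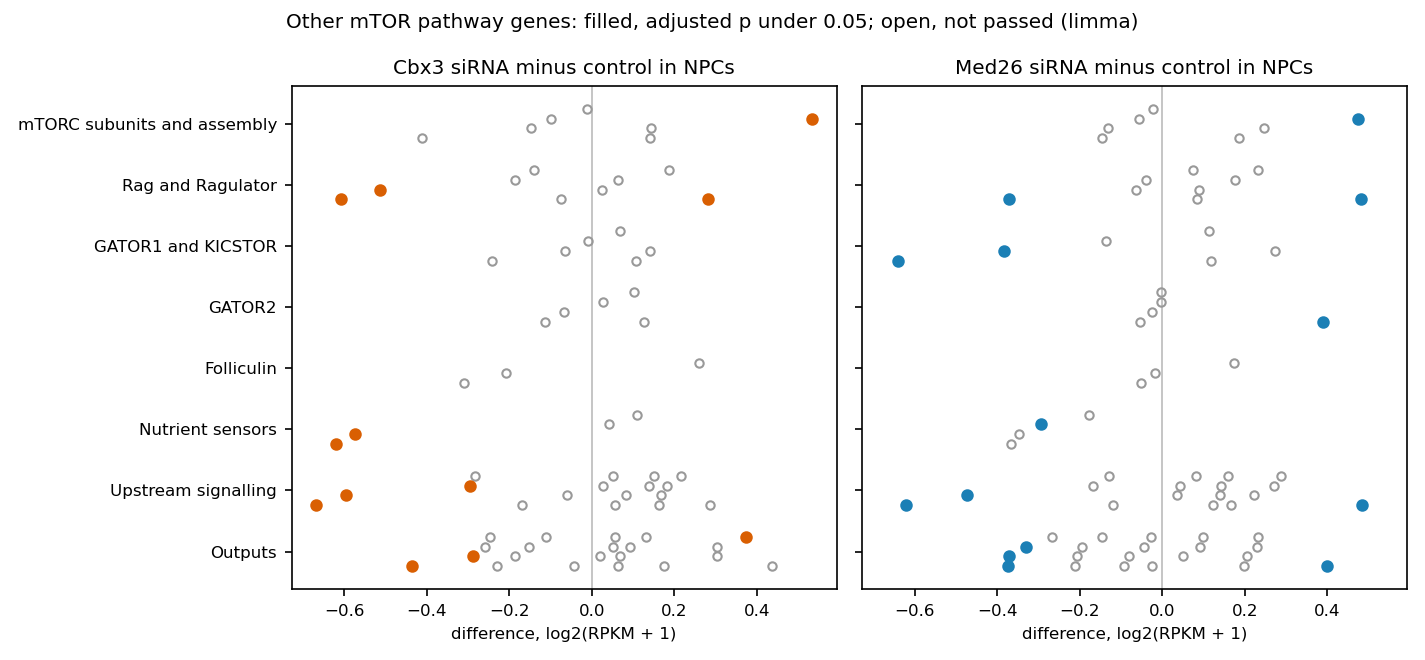
Difference in log2(RPKM + 1) of the 72 tested pathway list genes after Cbx3 (left) and Med26 siRNA (right) in NPCs, each against the same 2 control libraries, 1 point per gene in rows by list, filled where limma's adjusted p was under 0.05. In both panels more filled points lie left of 0 (9 genes each) than right of it (3 and 5).

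After Med26 siRNA 5 list genes rose and 9 fell (19.4% against 13.4% of all tested genes; 6.94% against 6.9% higher and 12.5% against 6.46% lower; median log2 change -0.01 against -0.001). Kptn, a KICSTOR subunit that restrains complex 1, fell from 8.88 and 9.40 to 5.06 and 5.99 RPKM (-0.64), and Akt1 from 27.9 and 27.7 to 18.8 and 20.7 RPKM (-0.47). Pik3r1, the PI3K regulatory subunit, rose from 2.68 and 2.65 to 4.08 and 4.17 RPKM (0.48), as did Rragc (0.48) and Rps6kb2 (0.40), an S6 kinase. Adjusted p for these 5 ran from 0.0086 (Akt1) to 0.0288 (Rps6kb2) by limma. Ddit4l (2.49 and 2.25 RPKM, -0.62), Rragb (-0.37) and Sesn3 (-0.29) fell after Med26 siRNA as after Cbx3 siRNA, and Prr5l (0.48) rose after both. Sgk1 went opposite ways, lower after Med26 siRNA (-0.33) and higher after Cbx3 siRNA (0.37). Both siRNAs were set against the same control libraries. Adjusted p for Ddit4l, Rragb, Sesn3, Prr5l and Sgk1 after Med26 siRNA ran from 0.0134 (Ddit4l) to 0.0398 (Sesn3) by limma. The count of 14 fell to 0 without NPC control replicate 1 or Med26 siRNA replicate 1, to 2 without control replicate 2 or Med26 siRNA replicate 2, and to 0 in the fit of all 10 libraries. Neural progenitor markers summed to 91.3 to 94.0 RPKM and epithelial markers to 461 to 488 RPKM after this siRNA, with Epcam at 132 and 140 RPKM. The part of these markers was not tested.

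Directly between the siRNAs 7 list genes were higher and 10 lower after Cbx3 than after Med26 siRNA (23.6% against 18.3% of all tested genes). By direction these were 9.72% higher and 13.9% lower, while 1244 of all 11956 tested genes were higher and 941 lower. The 2 Akt genes differed in opposite directions. Akt1 was at 32.1 and 32.8 RPKM after Cbx3 siRNA and 18.8 and 20.7 RPKM after Med26 siRNA (log2 difference 0.69, limma adjusted p = 0.00247), while Akt2 was at 2.38 and 1.97 against 4.43 and 4.13 RPKM (-0.74, limma adjusted p = 0.00796). Sgk1 (0.70, 43.4 and 38.9 against 25.1 and 24.6 RPKM) and Kptn (0.75) were higher and Rragd (-0.59), Pik3r1 (-0.54) and Pdcd4 (-0.53) lower after Cbx3 siRNA. The count of 17 fell to 6 and 9 without Med26 siRNA replicate 1 and 2, to 10 and 11 without Cbx3 siRNA replicate 1 and 2, and to 4 in the fit of all 10 libraries.

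In ESCs 0 of the 72 list genes passed after Cbx3 siRNA, as did 0 of all 11956 tested genes. At an unadjusted p under 0.05 (limma) there were 5 list genes and 645 of all tested genes. Between the control groups 8 were higher and 4 lower in NPCs (16.7% against 16% of all tested genes; 11.1% against 10.1% higher and 5.56% against 5.94% lower). The insulin receptor substrate Irs2 was at 17.7 and 12.3 RPKM in NPC and 1.99 and 3.89 RPKM in ESC controls (log2 difference 2.04), and Irs1 at 2.19 and 1.72 against 0.434 and 0.931 RPKM (0.82). Tfeb, the lysosomal transcription factor that complex 1 holds in the cytoplasm, was at 0.933 and 0.881 against 8.35 and 3.30 RPKM (-1.73), and Sgk1 at 31.9 and 31.1 against 86.0 and 81.2 RPKM (-1.38). Adjusted p for these 4 ran from 0.0011 (Sgk1) to 0.0488 (Tfeb) by limma. The count of 12 fell to 4 without ESC control replicate 1, 1 without either NPC control library and 7 without any 1 of the other 4 NPC libraries, and it was 18 without either ESC Cbx3 library.

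The 5 tested genes whose levels over all 10 libraries were most like those of Rptor, by Pearson's r of log2(RPKM + 1), were Zfp369 (0.95), Slc19a2, a thiamine transporter (0.95), Nupl1, a nucleoporin gene (0.95), Tlk1, a chromatin assembly kinase (0.94), and Mex3a, an RNA-binding protein gene (0.93). Zfp369 was at 6.43 and 6.05 RPKM in ESC controls, 3.30 and 3.03 after Cbx3 siRNA in ESCs, and 5.64 and 5.61 against 2.54 and 2.97 RPKM in NPCs. Of these 5, Mex3a lacks GAGAGTT in the transcript used, Tlk1 carries it 2 times and the others 1 time each. Over the 6 NPC libraries alone the 5 most like Rptor were Mettl17, Adgra3, Pgap1, Sall2 and Zfp532 (0.991 to 0.999), and only Zfp532 of them carries it. The genes share their libraries, the Cbx3 siRNA libraries that chose Rptor among them, so r is a description. GAGAGTT was picked from these same changes, so its presence in these genes supports nothing. It is carried by 18.3% of all tested genes with a matched transcript and by 35.5% of those near the Rptor transcript in length.

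None of the 7 other mTOR genes was near these in likeness. Tsc2 had the highest r with Rptor over the 10 libraries (0.63, 524th of the other tested genes), followed by Akt1s1 (0.51) and Tsc1 (0.49). Rictor (0.29) and Mtor (0.26) lay lower, and Rheb (-0.27) and Mlst8 (-0.34) ran against Rptor. Over the 6 NPC libraries r was 0.84 for Akt1s1 and -0.62 for Mlst8. Replicate 1 was the higher library in all 3 NPC groups for 6 of the 8 genes, Rptor among them, and the lower in all 3 for Rheb.

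**Figure D4:**
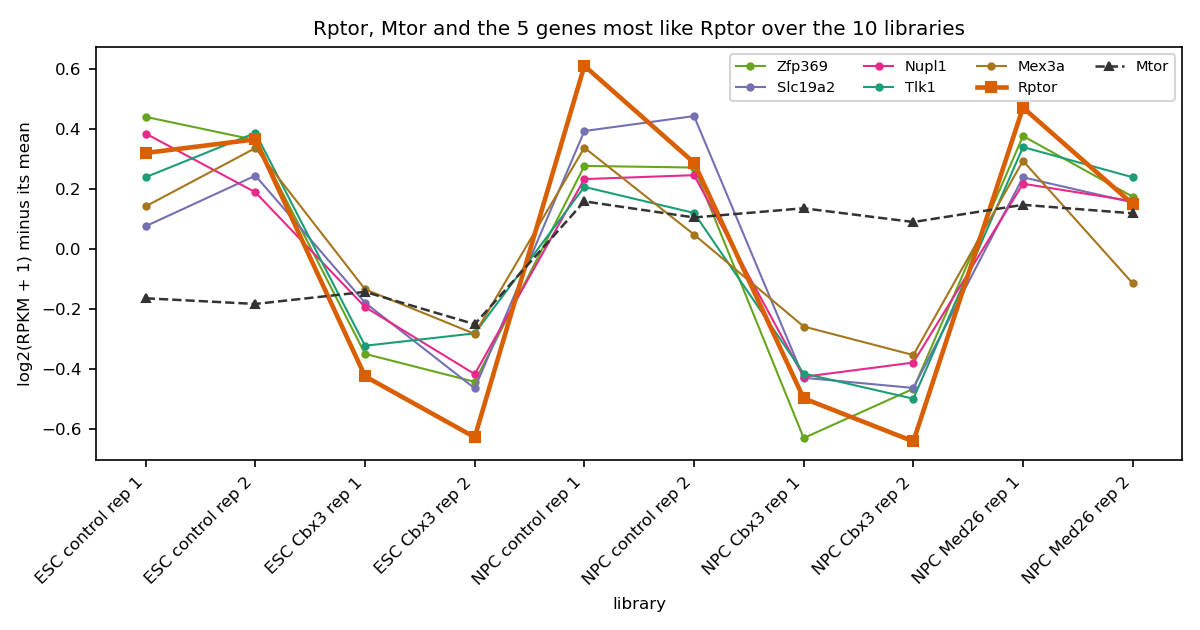
Level of Rptor, of the 5 genes most like it and of Mtor (dashed) in each of the 10 libraries, as log2(RPKM + 1) minus the gene's own mean; lines only join the points of a gene. Zfp369, like Rptor, is lower in the 4 libraries with Cbx3 siRNA (2.54 to 3.30 RPKM) than in the other 6 (5.18 to 6.43 RPKM).

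Rptoros, a long noncoding RNA gene within the Rptor locus on the opposite strand, was low throughout. It was at 0.399 and 0.460 RPKM in ESC controls and 0.101 and 0.256 RPKM after Cbx3 siRNA. In NPCs it was at 0.396 and 0.309 RPKM in controls, 0.168 and 0.0726 after Cbx3 siRNA and 0.342 and 0.214 after Med26 siRNA. Its mean after Cbx3 siRNA was 34.1% of control in NPCs and 41.7% in ESCs, with no overlap between the siRNA and control libraries. A second row of Rptoros, lower in mean, stood at 33.4% and 41.7%. It was below the filter and was not tested, and few reads lie behind values this low. No source used here says whether the counting used strand, so reads of Rptor and Rptoros cannot be told apart where the 2 overlap. Of the 1174 exon bases of Rptoros, 84 (7.16%) lie within an Rptor exon. The others lie in introns of the Rptor transcript used, where any reads of unspliced Rptor RNA could not be told apart either.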

How the data were processed

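RNA-seq was made from total RNA (TruSeq libraries, per the labels' protocols) of 10 libraries, 2 in each of 5 groups. The authors deposited 1 table of RPKM values by RefSeq accession. Reads were aligned with TopHat2 2.08 to mm9, per the submitters' processing notes; the counting tool and its use of strand are given by no source used here. Accessions were matched to symbols through RefSeq gene names of GRCm38.p6 (99.07% of 35860 rows). Each gene is represented by its row of highest mean. Genes reaching 1 RPKM in 2 or more libraries (11956 of 24520) were tested on log2(RPKM + 1) by limma (version 3.58.1, R 4.3.3) using an intensity trend and Benjamini-Hochberg adjustment over all tested genes, threshold 0.05, tested first on simulated data. Comparisons within NPCs used the 6 NPC libraries, the others all 10. Intervals are 95% intervals from the fit. Steps between low values gave read depth, but only 64.4 to 69.6% of low values came out within 0.1 of a whole read, so no count test was run.

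The 8 genes, the pathway list and the marker lists were chosen with earlier results of these data known. Besides these 8, the rule names the siRNA targets, up to 10 list genes past the threshold with the largest change in each comparison, the 5 genes most correlated with Rptor over 10 and over 6 libraries, and the markers. Rragc after Cbx3 siRNA and Rragb, Sesn3 and Sgk1 after Med26 siRNA fall outside those 10 and were named there, like Rptoros, after their values were seen. Sequence matches used the sense strand of 1 GENCODE transcript per gene. Some results covered by these rules are not reported here. Mesoderm markers (T, Mixl1 and Eomes) summed to 1.45 to 6.88 RPKM, endoderm markers to 0.693 to 2.52 RPKM, neuron markers to 34.9 to 56.4 RPKM and the ESC list to 365 to 734 RPKM over the libraries. Alternatives were another pseudocount (0.1), no filter, quantile normalization, summed rows, no trend, other libraries in the fit, a block and leaving out each library.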

Additional observations from a re-analysis of the deposited data

How the results depend on the processing

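Of 680 recomputed changes of the 8 genes, 661 counted as the same. For a tested change this means staying on its side of the threshold. For Rptor in comparisons with Cbx3 siRNA, where it had no test, it means a shift smaller than the residual SD of its main fit. Of the rest, 11 lost a call, 8 gained one and 0 called changes reversed. All 11 were that of Mtor between the control groups, the only call of the main fit that could be lost. Rptor lay between -1.18 and -0.86 after Cbx3 siRNA in NPCs and between -1.01 and -0.77 in ESCs on the log2 scale. Called genes of the 8 between control groups numbered 1, and 0 with quantile normalization, summed rows or no trend; for Cbx3 against Med26 siRNA they numbered 0, and 1 (Mlst8) with quantile normalization (adjusted p = 0.0463) or summed rows (0.0318), against 0.0258 to 0.465 over all its alternatives. List genes called after Cbx3 siRNA in NPCs (12) were 5 without the filter and 0 in the fit of all 10 libraries, after Med26 siRNA (14) 4 and 0, and between the siRNAs (17) 4 in the fit of 10. Over all genes 876 of 20125 passed after Cbx3 siRNA in NPCs without the filter, and 1 of 11956 in the fit of all 10 libraries. The labels do not pair libraries, and they give same-numbered libraries only the number in common. Their deviations correlated at 0.892 between the ESC groups and 0.423 to 0.461 among NPC groups. With a replicate block the list counts were 27, 32 and 30 within NPCs, 8 in ESCs (1 in the 4 ESC libraries alone) and 35 between controls (12 without it). Of all tested genes 3495 passed after Cbx3 siRNA in NPCs with the block, against 1570 without it. Among the 8 genes, 3 passed between the siRNAs with the block (Rictor, Mlst8 and Tsc2) and 4 between controls. Leaving out 1 library gave 0 to 1 of the 8 genes between controls, and list counts of 2 to 11 after Cbx3 siRNA in NPCs, 0 to 10 after Med26 siRNA, 6 to 14 between the siRNAs and 1 to 18 between controls. A group left with 1 library was assumed to vary like the others. Depth limits Tsc1 and Mlst8 most, with 244 and 167 reads behind their lowest values.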
